A study of Homo sapiens with 18 samples.

Results

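The subject is the difference between 2 drug responses: how far the CB-103 response of PIK3R1 knockout (KO) cells departed, gene by gene, from that of non-targeting control (NT) cells. RPMI-8402 is a human cell line, long established in culture from T-cell leukaemia of the acute lymphoblastic kind (T-ALL). CB-103 is a small molecule that blocks the assembly of the NOTCH transcription complex, and DMSO is its solvent. The response in a genotype is its CB-103 over DMSO fold change, and the interaction is the log2 response of KO cells minus that of NT cells, so a positive value marks a gene that fell less, or rose more, in KO cells. The members were fixed by the sample labels: KO cells with CB-103, KO cells with DMSO, NT cells with CB-103 and NT cells with DMSO, 3 libraries each and 24 h of treatment throughout, which is 12 of the 18 libraries of the study. The other 6 libraries, KO and NT cells with the gamma-secretase inhibitor (GSI) LY3039278, shared the estimate of the spread and served for 1 comparison with another NOTCH inhibitor. The NT cells carry a guide without a target and are labelled WT. The labels give neither the doses nor whether the KO cells are a pool or 1 clone. Nothing states that replicates were separate cultures, so p-values measure the spread between these libraries, which may be technical.

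NOTCH receptors are cut by gamma-secretase, and the freed intracellular part binds the DNA-binding protein RBPJ and switches on target genes such as HES1, DTX1 and MYC. Many T-ALL cells depend on this signal. PIK3R1 encodes p85alpha, the regulatory subunit of class I PI3K, which holds the catalytic subunits stable and inactive until a receptor recruits them; PI3K signals through AKT and mTOR to growth, glycolysis and protein synthesis, and restrains FOXO transcription factors.

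RNA was sequenced from polyA-selected stranded libraries, and levels are given as CPM, each count relative to a library's total after scaling for composition. CPM compares 1 gene across libraries, not 1 gene with another. The 12 libraries held 30416183 to 43558387 counts, and within a group log2 levels correlated at 0.995 to 0.998 across genes. Mitochondrially encoded genes took 2.24% ± 0.41 of counts in KO CB-103, 1.79% ± 0.094 in KO DMSO, 5.23% ± 0.43 in NT CB-103 and 3.34% ± 0.33 in NT DMSO libraries (SD, n = 3 each), so their share moved with genotype and with treatment. Of 13 such genes, 0 were called in the interaction, beside 14.6% of all genes tested, a share at which so few genes would hold few calls. T-lineage markers summed to 1239 to 1298 CPM in KO CB-103, 1955 to 2029 in KO DMSO, 1103 to 1213 in NT CB-103 and 2369 to 2391 in NT DMSO libraries, with 10 of 11 passing the filter on low counts and LMO2 absent or nearly so (3 counts in 12 libraries). Of 9 B-cell markers 5 passed, summing to between 2.11 and 4.78 CPM, with IGHM at 0; of 9 erythroid and megakaryocytic markers 2 passed, summing to between 0.390 and 1.11 CPM, with HBB and PF4 at 0. Myeloid markers (4 of 11 passed, S100A8 and ELANE at 0) summed to 33.4 to 41.1 CPM in KO CB-103, 5.15 to 6.07 in KO DMSO, 15.2 to 17.3 in NT CB-103 and 5.61 to 6.94 in NT DMSO libraries; CD68, described further on, made up most of the sum under CB-103 and more than any other marker under DMSO. Markers of adherent cells (4 of 11 passed, EPCAM, COL3A1 and CDH5 at 0) were mostly PECAM1, which T cells also express. In bulk RNA, fewer cells of a type and less RNA per cell cannot be told apart.

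The knocked-out gene set the genotype labels apart under DMSO only, and was itself a result. PIK3R1 (ENSG00000145675, chr5:68215720-68301821 on the plus strand, GRCh38) stood at 25.9, 29.9 and 27.6 CPM in KO CB-103 libraries, 23.1, 21.4 and 23.2 in KO DMSO, 30.9, 33.5 and 29.05 in NT CB-103, and 44.3, 45.5 and 42.5 in NT DMSO libraries. Its mRNA was thus lower in KO than in NT cells under DMSO with no overlap (log2 -0.97, adjusted p = 4.1e-07), whereas under CB-103 the genotypes overlapped (log2 -0.16, adjusted p = 0.17). PIK3R1 rose by 0.31 in KO cells (log2) and fell by 0.50 in NT cells, an interaction of 0.81 ± 0.13 (SE; edgeR quasi-likelihood test, Benjamini-Hochberg adjusted over all genes tested, adjusted p = 3.4e-04). A gene counts as called where this adjusted p is under 0.05. Residual mRNA says nothing of the protein, which was not measured.

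Where the CB-103 responses of the genotypes differed, they mostly went in the same direction and were smaller in KO cells. Of 17346 genes tested, 2533 (14.6%) were called in the interaction, 1780 (10.3%) above 0 and 753 (4.34%) below 0, and 303 by at least 2-fold. The largest class, 1573 genes (62.1% of those called), changed in the same direction in both genotypes and less in KO cells: 1152 fell in both, and 421 rose in both. A further 605 (23.9%) were called in NT cells only. Just 102 (4.03%) changed in the same direction in both genotypes and more in KO cells, and 188 (7.42%) were called in KO cells only. Another 59 (2.33%) moved in opposite directions and 6 (0.237%) had neither response called. The CB-103 response itself was called for 8432 genes (48.6%) in KO cells and 10095 (58.2%) in NT cells. Among the 3101 genes that changed at least 2-fold in NT cells, the median size of the log2 response was 0.97 in KO cells and 1.47 in NT cells; these genes were picked by their NT response, which favours a larger value there.

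**Figure D1:**
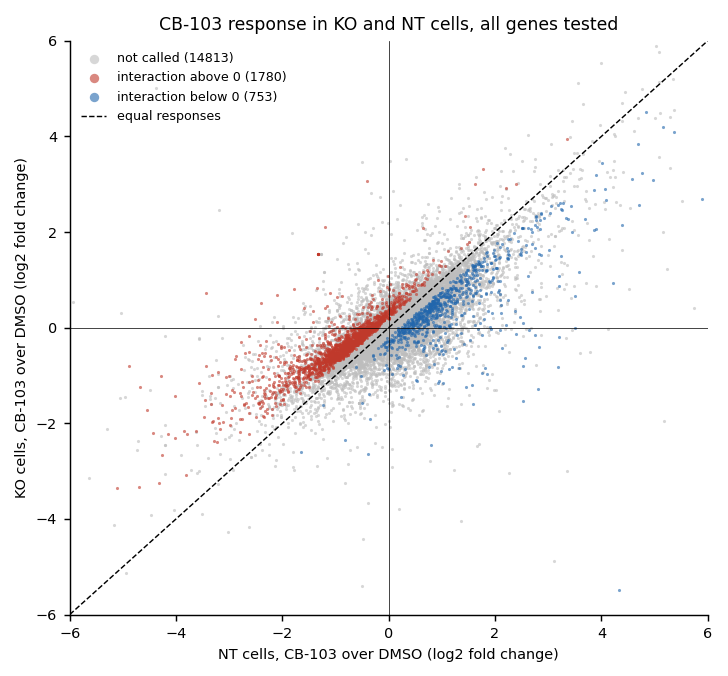
CB-103 response (log2 fold change, CB-103 over DMSO) in KO cells on the vertical axis against that in NT cells on the horizontal axis, 1 point per gene tested, with 35 genes outside the axes. Red points (1780) have an interaction above 0 and blue points (753) below 0; most red points lie left of 0 and above the dashed line of equal responses, and most blue points right of 0 and below it.

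The split between higher and lower calls depended on the scaling between libraries. With composition scaling (TMM) 70.3% of calls were above 0; with library totals alone 1242 genes were above and 1404 below 0, so 46.9% were above, and the median over all genes moved to -0.08 from 0.01 (log2). Without the mitochondrially encoded genes 2733 genes were called, 74.3% of them above 0. The class of smaller responses in KO cells was as large with library totals (1622 genes). A log2 interaction compares ratios. On the linear CPM scale the difference of the differences had the same sign for 2480 of the 2533 genes (97.9%).

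Seen as a genotype difference, the interaction mostly appeared under the drug. Between KO and NT cells 6412 genes (37%) differed under CB-103 and 3720 (21.4%) under DMSO. Of the 2533 genes called in the interaction, 1036 were higher in KO cells under CB-103 and not called under DMSO, and 460 were lower in KO cells under CB-103 and not called under DMSO. In 307 genes the knockout cells were lower under DMSO and no longer called under CB-103, and in 134 they were higher under DMSO and no longer called. Over all genes tested, KO cells were higher in 20.4% and lower in 16.5% under CB-103, and higher in 9.78% and lower in 11.7% under DMSO. The sign of the genotype difference turned in 142 genes (lower in KO under DMSO, higher under CB-103) and in 31 the other way. The 4 groups of each gene share libraries between these contrasts, so the classes describe the same interaction.

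Endoplasmic reticulum (ER) chaperones were the list with the largest share of calls below 0. Under CB-103 all 25 measured genes of the ER chaperone and unfolded protein response list rose in both genotypes. The median rise was 2.08 in KO cells and 2.50 in NT cells (log2). For 15 of the 25 the smaller rise in KO cells was called, against 4.34% of all genes called below 0, and 0 were called above 0. Only 1 of the 25 had an estimate above 0 (0.0010). The median interaction was -0.42, beside 0.01 over all genes. Under DMSO the median KO minus NT difference over the list was 0.0044 (log2), with members on both sides: ERO1B (0.49), HERPUD1 (0.39) and ERN1 (0.31) were higher in KO cells, and SEL1L (-0.50), DNAJB9 (-0.27), PDIA4 (-0.20) and HSP90B1 (-0.17) lower. With library totals alone 19 were called below 0, and without replicate 1 of each group 16.

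CRELD2 (ENSG00000184164, chr22:49918167-49927540), a secreted ER stress-induced disulfide isomerase, had 71.1, 60.5 and 67.9 CPM in KO CB-103 libraries, 10.1, 9.11 and 7.86 in KO DMSO, 122, 117 and 123 in NT CB-103, and 8.37, 8.30 and 8.29 in NT DMSO libraries. The genotypes overlapped under DMSO and were wide apart under CB-103. Its interaction was -0.97 ± 0.12 (adjusted p = 5.1e-05). PDIA4 (ENSG00000155660, chr7:149003062-149028641), a disulfide isomerase of the ER lumen, reached 1009, 878 and 946 CPM in KO CB-103 libraries against 178, 165 and 171 in KO DMSO, and 1969, 1754 and 1927 in NT CB-103 against 207, 198 and 186 in NT DMSO libraries (interaction -0.80 ± 0.09, adjusted p = 1.6e-05). SDF2L1, a partner of the ER chaperone complex, and HERPUD1, which serves the degradation of misfolded ER proteins, followed at -0.76 ± 0.11 and -0.71 ± 0.10. Under DMSO HERPUD1 was higher in KO cells (32.0 ± 1.49 against 24.4 ± 1.08 CPM, SD, n = 3 each). XBP1, the transcription factor whose mRNA the sensor ERN1 splices, had an interaction of -0.39 ± 0.07, and ERN1 itself -0.49.

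HSPA5, which encodes the ER chaperone BiP, was not called. It rose to 3084, 2497 and 3044 CPM in KO CB-103 libraries, against 331, 310 and 325 in KO DMSO libraries, and to 3660, 3276 and 3771 CPM in NT CB-103, against 379, 378 and 339 in NT DMSO libraries. The rise was 8.93-fold in KO and 9.77-fold in NT cells, and the interaction of -0.13 was not called (95% confidence interval -0.36 to 0.10, adjusted p = 0.47). EDEM1, which marks misfolded glycoproteins for disposal, was at 0.00 (-0.16 to 0.16).

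Many ER chaperone promoters carry the ER stress response element, CCAAT and CCACG with 9 bases between them. It was searched on both strands of the 300 bases around each start site in the RefSeq promoter table (GRCh38.p14, 250 bases before and 50 after the start), a motif chosen after the values had been seen. It was in 7 of 24 listed ER genes with an entry (29.2%) and in 5 of the 15 called below 0, beside 14 of 11614 promoters of all genes tested (0.121%). Among the 7 were CRELD2 and HSP90B1, both called below 0, and HSPA5, which was not called; their promoters are printed because the match does not separate called from uncalled members. Capitals mark the match, which reads CGTGG, 9 bases and ATTGG where it lies on the opposite strand.
CRELD2, chr22:49918384-49918683, plus strand: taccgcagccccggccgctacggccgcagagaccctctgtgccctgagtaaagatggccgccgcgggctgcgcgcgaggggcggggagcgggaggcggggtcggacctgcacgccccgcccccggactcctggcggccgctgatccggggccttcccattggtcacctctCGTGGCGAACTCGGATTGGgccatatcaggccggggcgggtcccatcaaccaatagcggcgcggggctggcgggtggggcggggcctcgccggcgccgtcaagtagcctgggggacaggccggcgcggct
HSP90B1, chr12:103930160-103930459, plus strand: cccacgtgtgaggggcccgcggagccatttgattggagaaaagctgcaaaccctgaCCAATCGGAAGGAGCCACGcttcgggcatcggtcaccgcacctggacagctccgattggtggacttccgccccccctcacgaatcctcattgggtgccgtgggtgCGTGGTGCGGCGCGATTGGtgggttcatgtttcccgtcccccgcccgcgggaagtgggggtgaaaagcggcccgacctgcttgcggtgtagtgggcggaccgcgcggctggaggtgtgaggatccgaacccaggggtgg
HSPA5, chr9:125241294-125241593, minus strand: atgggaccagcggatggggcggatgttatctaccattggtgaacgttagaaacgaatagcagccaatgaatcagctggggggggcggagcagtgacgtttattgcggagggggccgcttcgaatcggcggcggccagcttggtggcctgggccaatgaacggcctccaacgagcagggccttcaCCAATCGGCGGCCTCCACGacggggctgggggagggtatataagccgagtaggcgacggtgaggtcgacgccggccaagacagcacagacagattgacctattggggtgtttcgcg
HSP90B1, the ER form of HSP90, holds 2 matches and stood at 2327 ± 182 CPM in KO CB-103, 550 ± 28.6 in KO DMSO, 3501 ± 90.5 in NT CB-103 and 620 ± 12.03 in NT DMSO libraries (SD, n = 3 each), with an interaction of -0.42 ± 0.08 (adjusted p = 0.0018).

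**Figure D2:**
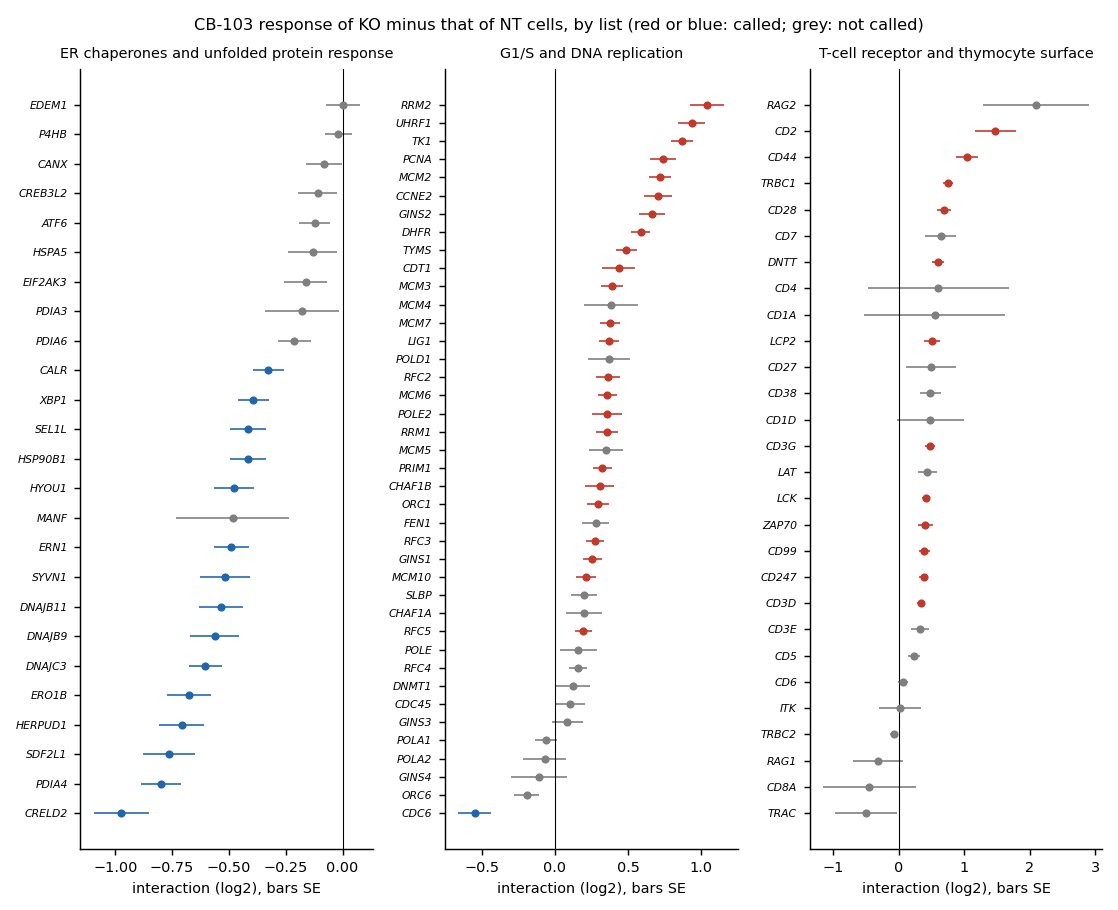
Interaction of each measured member of 3 lists (log2, horizontal axis; bars are the SE of the fit to 18 libraries), red where called above 0, blue where called below 0 and grey where not called. ER genes lie at or below 0 from EDEM1 down to CRELD2 (-0.97), DNA replication genes mostly above 0 up to RRM2 (1.04) with CDC6 (-0.55) apart, and 12 thymocyte surface genes are called above 0.

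Targets of ATF4, the transcription factor of the amino acid response, split in 2 directions. Of 33 measured, 12 were called above and 3 below 0 (45.5% called, beside 14.6% of all genes). The genes above 0 included the transporter SLC7A5, the serine synthesis enzyme PHGDH and CHAC1, a glutathione-degrading enzyme. SLC7A5 had 587, 508 and 573 CPM in KO CB-103, 415, 413 and 419 in KO DMSO, 449, 440 and 418 in NT CB-103, and 462, 480 and 478 in NT DMSO libraries, so it rose in KO cells, while its NT response of -0.12 was not called (adjusted p = 0.051; interaction 0.54 ± 0.07, adjusted p = 9.0e-05). ATF4 mRNA rose in both, by 1.00 in KO cells and 0.50 in NT cells (interaction 0.49 ± 0.06). The 3 below 0 were SLC3A2, CEBPG and DDIT3, which encodes the stress factor CHOP and averaged 202 ± 13.6 CPM in KO CB-103 and 285 ± 18.5 CPM in NT CB-103 libraries (SD, n = 3 each). The call of CHAC1 (0.58) was lost with library totals alone and with any of 4 single libraries left out. Its value stayed between 0.50 and 0.67 in all alternative settings.

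Cytosolic and mitochondrial chaperones that were called had interactions above 0. Of 19 cytosolic and mitochondrial chaperones measured, 9 were called above 0 and 0 below (47.4% called, beside 14.6% of all genes). HSPA8 (ENSG00000109971, chr11:123057489-123063230), the constitutive HSP70, had 3324, 2663 and 3039 CPM in KO CB-103, 2566, 2096 and 2030 in KO DMSO, 2114, 1881 and 2059 in NT CB-103, and 2853, 2641 and 2466 in NT DMSO libraries. It rose in KO cells and fell in NT cells without overlap in either (interaction 0.83 ± 0.13, adjusted p = 4.1e-04). HSP90AA1, a cytosolic HSP90, rose by 1.13 in KO and 0.51 in NT cells. The inducible HSP70 genes HSPA1A and HSPA1B rose more in KO cells as well, with interactions of 0.72 and 0.61; they are near-identical copies, and the split of reads between them is uncertain.

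DNA replication genes mostly fell, and fell less in KO cells. In the list of G1/S and DNA replication, with 40 measured, 30 genes fell in KO cells and 34 in NT cells; 24 were called above 0 and 1 below, against 10.3% and 4.34% of all genes, and the median interaction was 0.34. The counts were 18 and 1 with library totals alone. Under DMSO the list stood slightly higher in KO cells (median 0.13 log2) and under CB-103 more so (median 0.41). RRM2 (ENSG00000171848, chr2:10120698-10131419), the small subunit of ribonucleotide reductase, was at 126, 113 and 104 CPM in KO CB-103, 275, 258 and 258 in KO DMSO, 49.0, 47.1 and 50.3 in NT CB-103, and 243, 254 and 198 in NT DMSO libraries. Its fall in KO cells was 2.31-fold and in NT cells 4.74-fold, an interaction of 1.04 ± 0.12 (adjusted p = 2.3e-05); another annotated gene overlaps RRM2 on the same strand. UHRF1, a maintenance DNA methylation cofactor, followed at 0.94 ± 0.09, thymidine kinase TK1 at 0.87 ± 0.07 and the replication clamp PCNA at 0.74 ± 0.09. CDC6, which loads the replicative helicase, was the exception below 0: it rose in both genotypes, to 159 ± 18.5 against 73.8 ± 6.21 CPM in KO cells and to 239 ± 12.4 against 76.1 ± 5.07 CPM in NT cells (CB-103 against DMSO, SD, n = 3 each).

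Regulators of the G1 restriction point were called as often. Of 16 measured, 9 were above and 1 below 0 (62.5% called, as in the G1/S list, beside 14.6% of all genes). CCND3 (ENSG00000112576, chr6:41934933-42050357), cyclin D3 and a NOTCH target in T-ALL, was at 212, 191 and 202 CPM in KO CB-103, 677, 609 and 621 in KO DMSO, 168, 146 and 130 in NT CB-103, and 920, 935 and 925 in NT DMSO libraries. The genotype order turned: KO cells were lower under DMSO and higher under CB-103, without overlap in either (interaction 0.99 ± 0.10, adjusted p = 1.2e-05). RB1, the pocket protein that cyclin D kinases phosphorylate, was far lower in KO cells under DMSO (203 ± 6.98 against 550 ± 20.4 CPM) and its interaction was 0.93 ± 0.09, but with counts summed from the transcript files the value was 0.18 and not called, so it depends on the counting. CCNE2, cyclin E2, was at 0.71 ± 0.10. CDKN1A, the inhibitor p21, was the 1 called below 0 (-1.11 ± 0.35, adjusted p = 0.043) from levels of 6.62 CPM or less, higher in KO cells under both treatments, and 11 of 23 alternative settings lost the call; on the linear scale its gain was larger in KO cells. CDKN1B, the inhibitor p27, rose by 0.48 in KO cells and 0.46 in NT cells, an interaction of 0.02 (-0.14 to 0.18, adjusted p = 0.90). Of 31 G2/M and mitosis genes 10 were called above and 0 below 0, with library totals 2 above and 1 below.

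**Figure D3:**
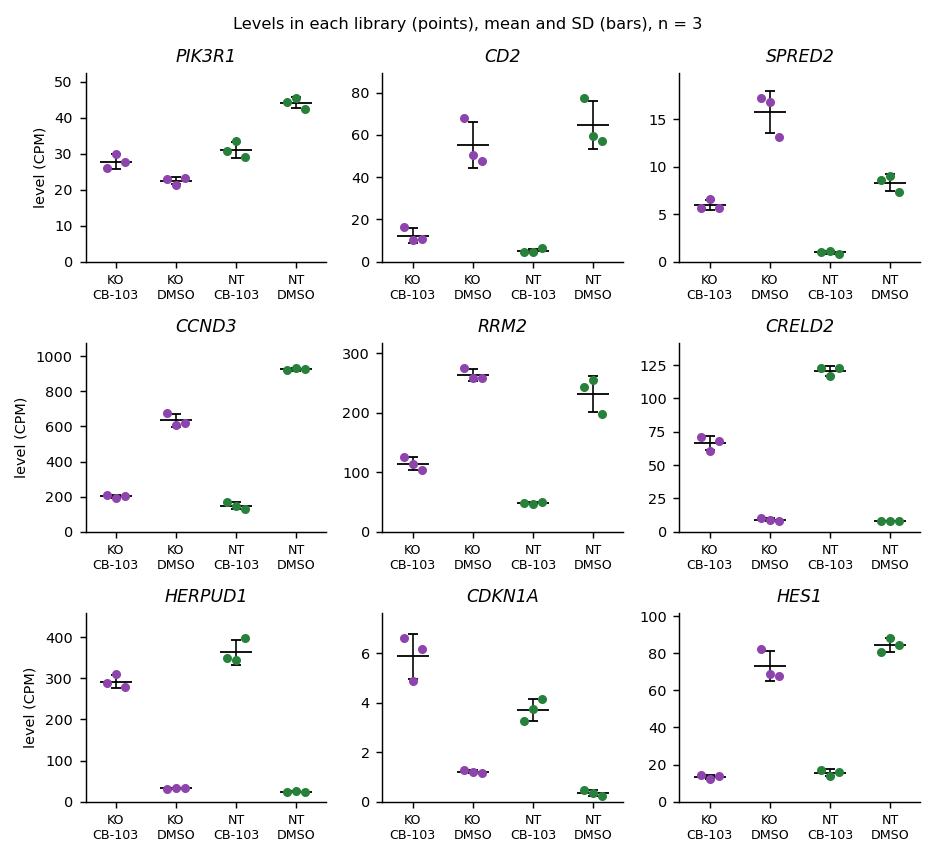
Level in CPM of 9 genes in each library (points; purple KO, green NT), with the mean and SD of 3 libraries as bars and every axis starting at 0. PIK3R1 rises with CB-103 in KO and falls in NT cells; CD2, SPRED2, CCND3 and RRM2 end higher in KO than in NT cells under CB-103; CRELD2 and HERPUD1 end lower; HES1 ends close together in both.

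NOTCH targets mostly fell in both genotypes. Of 16 measured, 14 fell in KO cells and 14 in NT cells, with medians of -1.40 and -1.65 (log2). In the interaction 6 were called above and 1 below 0 (43.8%, beside 14.6% of all genes). HES1 (ENSG00000114315, chr3:194136145-194138732), the bHLH repressor used as a NOTCH readout, stood at 14.4, 12.2 and 13.9 CPM in KO CB-103, 82.3, 68.7 and 67.9 in KO DMSO, 17.1, 13.8 and 16.1 in NT CB-103, and 80.6, 88.3 and 84.2 in NT DMSO libraries. It fell 5.41-fold in KO and 5.36-fold in NT cells, and the interaction of -0.01 was not called (95% confidence interval -0.27 to 0.25). MYC averaged 26.5 ± 1.11 CPM in KO CB-103, 110 ± 10.9 in KO DMSO, 26.6 ± 0.896 in NT CB-103 and 123 ± 5.79 in NT DMSO libraries (interaction 0.15, -0.05 to 0.35, adjusted p = 0.33). HES4, IGF1R and NOTCH3 were not called either, at -0.16 (-0.40 to 0.07), 0.15 (-0.09 to 0.40) and 0.28 (-0.20 to 0.76). NOTCH3 was called in 2 of 23 alternative settings: with counts summed from the transcript files, and without NT CB-103 replicate 2 (0.59).

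The NOTCH targets that differed kept more of their level in KO cells, save 1. DTX1, a NOTCH-regulated ubiquitin ligase, was at 17.6 ± 0.893 CPM in KO CB-103, 80.5 ± 2.18 in KO DMSO, 25.1 ± 2.70 in NT CB-103 and 175 ± 13.2 in NT DMSO libraries. KO cells were lower at the outset and lost less (interaction 0.60 ± 0.11, adjusted p = 0.0014). NOTCH1, which lies in its own target list, was at 186, 191 and 181 CPM in KO CB-103, 387, 398 and 413 in KO DMSO, 151, 157 and 146 in NT CB-103, and 439, 517 and 499 in NT DMSO libraries (interaction 0.58 ± 0.08, adjusted p = 1.5e-04). CR2, the complement receptor CD21, was at 0.73 and CD3G at 0.48. HEYL, another bHLH repressor, was the 1 below 0 (-0.30 ± 0.09). NRARP, a feedback inhibitor of the NOTCH complex, had 0 counts and PTCRA, the pre-T-cell receptor alpha chain, at most 7 in a library, so neither could be tested. IL7R was tested at a mean under 0.5 CPM and its interval ran from -2.84 to 3.21.

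The core RBPJ motif TGGGAA, searched on both strands of the same promoters, lay in 22% of all genes tested, 20.2% of genes called above 0 and 21.2% of those called below 0. Shares were alike for a FOXO motif (TGTTTAC; 2.33%, 2.15% and 3.29%), an AP-1 motif (TGANTCA; 4.62%, 4.37% and 4.75%) and the E-box CACGTG (9.84%, 10.2% and 10.4%); motifs can overlap and each was counted alone. The HES1 promoter, printed for its 2 matches in capitals, belongs to the NOTCH readout whose interaction was not called.
HES1, chr3:194135898-194136197, plus strand: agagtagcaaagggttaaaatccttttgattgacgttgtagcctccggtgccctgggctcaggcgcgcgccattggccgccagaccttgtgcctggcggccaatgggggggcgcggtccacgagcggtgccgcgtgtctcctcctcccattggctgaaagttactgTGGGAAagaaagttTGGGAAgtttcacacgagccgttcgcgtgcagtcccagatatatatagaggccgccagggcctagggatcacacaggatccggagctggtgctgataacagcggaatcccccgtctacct

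Among PI3K subunits 4 of 11 measured were called (36.4%, beside 14.6% of all genes), all above 0. Beside PIK3R1 they were the catalytic subunits PIK3CG and PIK3CD and the regulatory subunit PIK3R3. PIK3CG, p110gamma, was at 20.1, 15.1 and 16.9 CPM in KO CB-103, 21.0, 22.6 and 25.6 in KO DMSO, 8.56, 8.76 and 9.003 in NT CB-103, and 21.0, 21.3 and 21.6 in NT DMSO libraries. The genotypes overlapped under DMSO only, and the interaction was 0.87 ± 0.13 (adjusted p = 2.5e-04). PIK3CD, p110delta, had 0.48 ± 0.07 and PIK3R3 0.33 ± 0.09; the PIK3R3 call was lost with library totals alone and without replicate 1 of each group. PIK3CA, p110alpha, was at 0.12 and not called. Of 31 AKT, mTOR and phosphatase genes 7 were called above and 0 below 0 (22.6% called), with library totals 4 and 3. Among the 7 were AKT1 (0.41 ± 0.09) and INPP5D, the lipid phosphatase SHIP1 (0.57 ± 0.09). MTOR was at -0.21 and not called. Of 24 FOXO factors and targets 4 were called (16.7%, beside 14.6% of all genes), all above 0. Among them S1PR1, a receptor that guides T cells out of lymphoid tissue, was at 0.51. CCR7 (1.53) stayed under 1 CPM in all 12 libraries, and 15 of 23 alternative settings lost its call.

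Genes of T-cell identity mostly fell, and all but 1 of those called fell less in KO cells. Of 28 thymocyte surface genes 22 fell in KO cells and 24 in NT cells. Of these 28, 12 were called above and 0 below 0 (42.9%, median 0.46). Of 23 T-ALL and T-lineage transcription factors 9 were called above and 0 below 0 (39.1%, median 0.35), beside 14.6% of all genes called. CD2 (ENSG00000116824, chr1:116754385-116769228), a T-cell adhesion receptor, had 16.5, 10.2 and 10.5 CPM in KO CB-103, 67.7, 50.2 and 47.6 in KO DMSO, 4.65, 4.72 and 6.32 in NT CB-103, and 77.5, 59.3 and 57.0 in NT DMSO libraries. The genotypes overlapped under DMSO and not under CB-103 (interaction 1.47 ± 0.31, adjusted p = 0.0036). CD247, the zeta chain of the T-cell receptor complex, was that exception: it rose by 0.21 in KO cells and fell by 0.17 in NT cells. TRBC1, a constant gene of the T-cell receptor beta chain with a near-identical copy, was at 0.75 ± 0.08, the costimulatory receptor CD28 at 0.70 ± 0.11 and the terminal transferase DNTT at 0.60 ± 0.09. The hyaluronan receptor CD44 (1.05 ± 0.17) started from a different place: 17.1 ± 0.408 CPM in KO DMSO and 92.7 ± 2.30 in NT DMSO libraries. Among the transcription factors TOX (0.67), ERG (0.66), HHEX (0.54) and LEF1 (0.53) were called, TAL1 (0.27), a founding T-ALL oncogene, as well, and GATA3 (0.45) was not.

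Nuclear genes of energy metabolism were called above 0 more often than all genes (10.3%). Of the 13 mitochondrially encoded ones 0 were called, beside 14.6% of all genes, a share at which so short a list would hold few calls. Their estimates all lay below 0 (-0.35 to -0.047, median -0.133). Of 29 glycolysis and hypoxia genes 16 were called above and 1 below 0 (median 0.39), and of 33 nuclear genes of the respiratory chain 20 and 0 (median 0.32); with library totals the counts were 13 and 1, and 14 and 0. PGK1, a kinase of glycolysis, was at 577 ± 30.6 CPM in KO CB-103, 797 ± 66.8 in KO DMSO, 381 ± 33.4 in NT CB-103 and 857 ± 94.0 in NT DMSO libraries (interaction 0.71 ± 0.11). LDHA, lactate dehydrogenase A, was lower in KO cells under both treatments, 454 ± 28.9 against 543 ± 55.7 CPM with CB-103 and 1061 ± 123 against 1873 ± 174 CPM with DMSO (0.56 ± 0.12). VEGFA, a hypoxia-induced growth factor, was the 1 below 0 (-0.61 ± 0.12): it averaged 166 CPM in KO CB-103, 37.2 in KO DMSO, 166 in NT CB-103 and 24.6 in NT DMSO libraries. The mitochondrial ATP synthase gene ATP5MC1 led the respiratory chain at 0.61 ± 0.08, with SDHC at 0.56 ± 0.08, COX7C at 0.53 ± 0.14 and NDUFA2 at 0.52 ± 0.11; COX7C was not called with library totals alone or without KO CB-103 replicate 3.

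Lists of protein synthesis and turnover varied in their share of calls, beside 14.6% of all genes. Ribosome biogenesis (12.5%) and aminoacyl-tRNA synthetases (15%) lay near that share, and the other lists of this kind had 22% to 42.3%. Above 0 were 9 of 41 ribosomal protein genes and 9 of 24 translation factors, below 0 were 0 and 1. Ribosome biogenesis, a MYC-driven group, had 4 above and 1 below 0 of 40 measured, with a median of -0.03, and 2 above and 8 below with library totals alone. Proteasome subunits had 8 of 31 above 0; PSMA2 and PSMA4 rose in KO cells and fell in NT cells (0.47 and 0.40). Splicing factors had 11 above and 3 below 0 of 37, nucleotide and polyamine synthesis 10 and 1 of 26, aminoacyl-tRNA synthetases 2 and 1 of 20.

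Signalling feedback and survival genes included some of the larger values. SPRED2, which restrains RAS-MAPK signalling, had 5.69, 6.601 and 5.67 CPM in KO CB-103, 17.2, 16.8 and 13.2 in KO DMSO, 1.03, 1.12 and 0.845 in NT CB-103, and 8.62, 9.01 and 7.37 in NT DMSO libraries. KO cells were higher under both treatments and more so under CB-103 (interaction 1.66 ± 0.19, adjusted p = 2.5e-05). Of 12 MAPK feedback genes 4 were called (33.3%, beside 14.6% of all genes), all above 0: SPRED2, ETV5 (1.5002), DUSP5 (0.87) and SPRY2 (0.41). DUSP4 and DUSP6 were not called. Of 23 alternative settings 13 lost the call of SPRY2 and 5 that of DUSP5, and 2 of the list were called without replicate 1 of each group. Of 15 BCL2 family genes 4 were called (26.7%), all above 0. BCL2, which blocks apoptosis, was at 11.8 ± 1.62 CPM in KO CB-103, 18.9 ± 0.231 in KO DMSO, 5.42 ± 0.573 in NT CB-103 and 16.5 ± 0.213 in NT DMSO libraries (0.92 ± 0.13, adjusted p = 1.7e-04), and its death-promoting relatives BID (0.82) and PMAIP1 (0.31) were called in the same direction, PMAIP1 not in 7 of 23 alternative settings. BCL2L1, which encodes BCL-XL, was at 0.46. Interferon and MHC class I genes had 12 of 34 above and 1 below 0 (38.2% called), led by IFIT3 (1.33), which fell in NT cells only. OAS1 (-0.77) was below 0 although its sister OAS3 (0.79) was above, and without replicate 1 of each group OAS1 was not called. In sterol synthesis calls below 0 outnumbered those above, with 1 above and 4 below 0 of 22 (22.7% called). HSD17B7 (-0.80), STARD4 (-0.56), HMGCS1 (-0.39) and INSIG1 (-0.26) all rose less in KO cells. The call of INSIG1 was lost in 14 of 23 alternative settings.

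**Figure D4:**
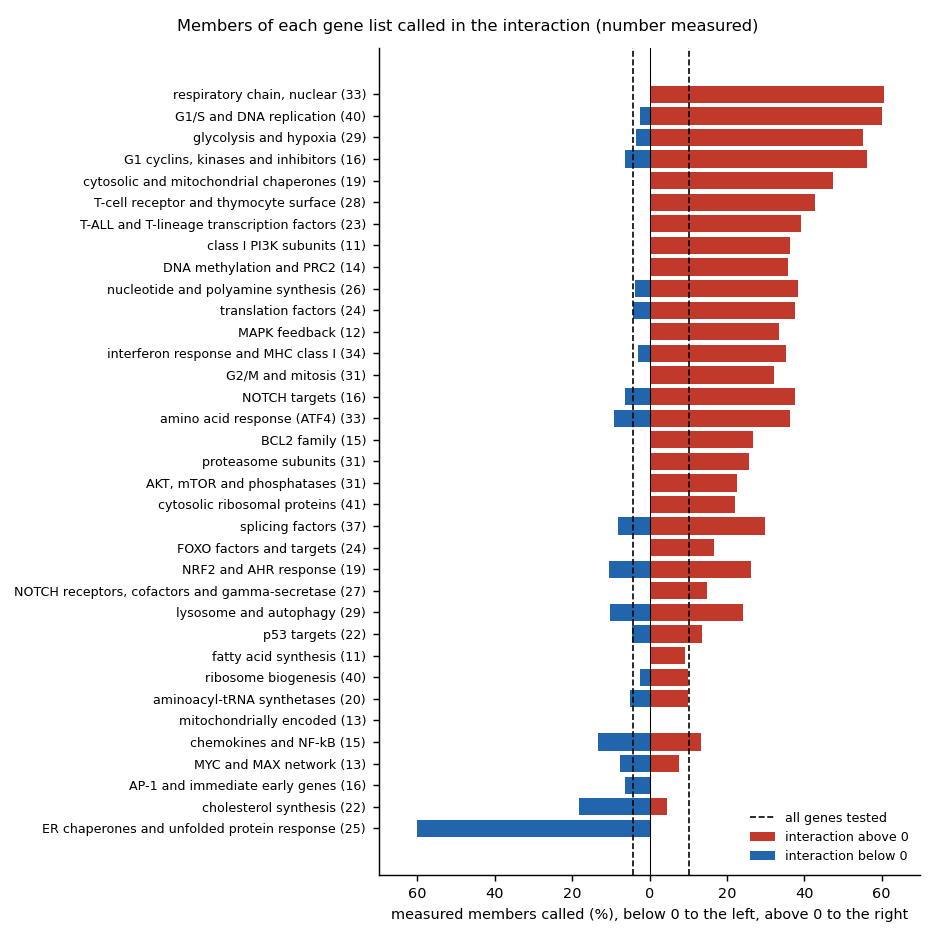
Percent of measured members called above 0 (red, to the right) and below 0 (blue, to the left) in each gene list of at least 11 measured members, whose number stands in brackets; dashed lines give 10.3% and 4.34%, the shares of all genes tested. The ER list lies at the bottom with 15 of 25 below 0, and the respiratory chain and G1/S lists at the top with 20 of 33 and 24 of 40 above 0.

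In the other lists, calls above and below 0 were 4 and 0 of 27 genes of the NOTCH receptor and gamma-secretase list, 1 and 0 of 9 of the insulin and IGF1 receptor list, 1 and 0 of 11 of fatty acid synthesis, 3 and 1 of 22 p53 targets, 5 and 2 of 19 of the NRF2 and AHR response, 7 and 3 of 29 of lysosome and autophagy, 1 and 1 of 13 of the MYC and MAX network, 5 and 0 of 14 of DNA methylation and PRC2, 0 and 1 of 16 immediate early genes, and 2 and 2 of 15 chemokine and NF-kB genes. In the order given, the shares called were 14.8%, 11.1%, 9.09%, 18.2%, 36.8%, 34.5%, 15.4%, 35.7%, 6.25% and 26.7%, beside 14.6% of all genes. The NOTCH receptor list and the MYC and MAX network thus lay near the share of all genes. With library totals alone the balance turned in some lists. The p53 targets had 0 above and 2 below 0, fatty acid synthesis 0 and 2, and the MYC and MAX network 0 and 2. Aminoacyl-tRNA synthetases had 2 and 3, and lysosome and autophagy 4 and 4. FOXO factors and targets then had 2 and 1, NOTCH targets 6 and 2, and cytosolic and mitochondrial chaperones 6 and 1. In the marker lists the calls were CD79B (B cell), CD68 and S100A9 (myeloid) and PECAM1 (adherent), all above 0; CD79B and S100A9 stayed under 2 CPM in every library.

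Of the 12 highest interactions among genes called at a mean of at least 5 CPM, all but that of CD68 belonged to genes that fell in both genotypes, and fell less in KO cells. KRT1 (ENSG00000167768, chr12:52674736-52680407), a keratin of the epidermis, had 10.6, 8.95 and 8.83 CPM in KO CB-103, 41.5, 44.8 and 45.2 in KO DMSO, 1.151, 1.08 and 1.11 in NT CB-103, and 22.8, 24.5 and 24.9 in NT DMSO libraries. It fell 4.63-fold in KO and 21.5-fold in NT cells (interaction 2.21 ± 0.19, adjusted p = 2.4e-06). LGALS9 (ENSG00000168961, chr17:27629798-27649560), galectin-9, started alike, at 77.5, 89.1 and 83.0 CPM in KO DMSO and 81.3, 82.7 and 89.2 in NT DMSO libraries, and ended at 39.1, 36.2 and 37.7 CPM in KO CB-103 and 13.2, 12.9 and 11.4 in NT CB-103 libraries (1.61 ± 0.10, adjusted p = 1.3e-07). TMSB10 (ENSG00000034510, chr2:84905625-84906675), an actin-binding thymosin, was lower in KO cells under DMSO and higher under CB-103. It had 183 ± 10.5 CPM in KO CB-103, 494 ± 15.4 in KO DMSO, 78.3 ± 6.81 in NT CB-103 and 622 ± 0.725 in NT DMSO libraries (1.56 ± 0.09, adjusted p = 8.7e-08).

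The other 9 of the 12 highest were TAC3 (1.86), a neurokinin precursor, the galectin LGALS12 (1.77), SPRED2, the lymphocyte adhesion ligand CD48 (1.60), TMEM92 (1.57), CD68 (1.53), the transporter SLCO4A1 (1.49), CD2 and the biotin-recycling enzyme BTD (1.42). CD68, a lysosomal glycoprotein abundant in macrophages, rose to 39.4, 31.2 and 34.0 CPM in KO CB-103, against 3.87, 2.86 and 3.86 in KO DMSO libraries, and to 15.4, 13.8 and 13.7 CPM in NT CB-103, against 4.24, 4.38 and 3.92 in NT DMSO libraries. Of 11 myeloid markers 4 passed the filter: CD68 and S100A9, both called above 0, and LYZ and ITGAM, which were not called. S100A9 reached at most 0.92 CPM in the 12 libraries, and S100A8 and ELANE were at 0. Of CD68 exon bases 81.7% lie under another annotated gene on the same strand, so reads may be shared. For KRT1, LGALS12 and SPRED2 the KO cells lost more CPM on the linear scale, because they started higher; the interaction there concerns ratios only.

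The 12 lowest were less uniform. IL21R (ENSG00000103522, chr16:27402162-27452042), a cytokine receptor, reached 12.8, 13.3 and 14.3 CPM in KO CB-103 and 15.6, 13.3 and 13.5 in NT CB-103 libraries, against 1.52, 1.14 and 1.64 in KO DMSO and 0.629, 0.401 and 0.516 in NT DMSO libraries (-1.53 ± 0.26, adjusted p = 7.8e-04). The genotypes differed under DMSO and overlapped under CB-103; part of its exons lies under the antisense gene IL21R-AS1, and the labels do not say whether counting used strand. OPTN (ENSG00000123240, chr10:13099449-13138308), an autophagy receptor, behaved likewise, with 96.9 ± 10.1 CPM in KO CB-103, 15.2 ± 0.875 in KO DMSO, 95.6 ± 7.51 in NT CB-103 and 5.58 ± 1.16 in NT DMSO libraries (-1.41 ± 0.16, adjusted p = 2.1e-05). MIR22HG (ENSG00000186594, chr17:1711493-1717174), the host transcript of miR-22, showed the reverse: the genotypes overlapped under DMSO at 0.895 to 1.34 CPM, and CB-103 took it to 15.5, 22.2 and 17.3 CPM in KO and 50.3, 47.9 and 46.6 CPM in NT libraries (-1.28 ± 0.26, adjusted p = 0.0030). The microtubule-end protein MAPRE3 (-1.44) was higher in KO cells under both treatments, and its gain in CPM was the larger one in KO cells. The rest were BTN2A3P (-1.12), SCART1 (-1.10), YJEFN3 (-1.10), STK36 (-1.09), HSD17B7P2 (-1.08), APPAT (-1.08), DNAJC6 (-1.08) and RIC3 (-1.07). BTN2A3P and HSD17B7P2 are pseudogenes whose reads may belong to their parent genes, and YJEFN3 was not called without replicate 1 of each group.

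Genes with opposite responses were few, and the 4 with the largest interactions at a mean of at least 5 CPM were F2RL2, RNF145, HSPA8 and PIK3R1. F2RL2, a thrombin receptor family member, was at 5.07, 3.58 and 4.03 CPM in KO CB-103, 2.44, 2.79 and 2.61 in KO DMSO, 8.49, 7.55 and 7.26 in NT CB-103, and 9.55, 10.8 and 8.75 in NT DMSO libraries (1.01 ± 0.18, adjusted p = 0.0013). RNF145, an ER ubiquitin ligase of sterol metabolism, was at 80.6, 79.4 and 81.1 CPM in KO CB-103, 65.2, 66.7 and 66.1 in KO DMSO, 50.8, 47.5 and 50.9 in NT CB-103, and 76.4, 73.6 and 71.2 in NT DMSO libraries. No groups overlapped (0.85 ± 0.07, adjusted p = 1.5e-06). At the same minimum level, responses larger in KO cells were led by CD68 and SULT1A1 (ENSG00000196502, chr16:28605196-28623625), a phenol sulfotransferase. SULT1A1 had 71.1, 70.4 and 69.2 CPM in KO CB-103, 9.63, 8.34 and 8.25 in KO DMSO, 14.3, 15.9 and 15.4 in NT CB-103, and 5.58, 3.95 and 5.14 in NT DMSO libraries (1.38 ± 0.14, adjusted p = 8.3e-06). SULT1A1 has near-identical copies, and the split of reads among them is uncertain. RIC3, a chaperone of acetylcholine receptors, fell more in KO cells, and the tetraspanin TSPAN13 rose more (0.89). Among genes called in KO cells only were IL16 (1.06), WWC2 (-1.02), ABCA1 (-0.94), the cholesterol exporter, and LINC02273 (0.89). Among those called in NT cells only were IFIT3, the secretory GTPase RAB27B (1.31), SCART1 and HNRNPA1L3 (1.10); HNRNPA1L3 resembles HNRNPA1, its reads may be shared, and its call was lost without KO CB-103 replicate 3.

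With a second NOTCH inhibitor, the GSI, fewer genes were called, 54 of them by at least 2-fold against 303 with CB-103. The SD of the estimated interactions over all genes was 0.63 (log2) with the GSI and 0.66 with CB-103. That SD includes the noise of genes with low counts. The GSI response of KO minus that of NT cells was called for 484 genes (2.79%), 364 (2.1%) above and 120 (0.692%) below 0. The genotype difference under CB-103 minus that under the GSI, in which the DMSO libraries cancel, was called for 2191 genes (12.6%), 1222 (7.04%) above and 969 (5.59%) below 0. Both treatments lasted 24 h, but the doses are not given, so the inhibitors were not matched for strength. The count above 0 was 782 without NT CB-103 replicate 3 and 784 without NT GSI replicate 3; mitochondrially encoded genes took 1.90% to 5.51% of counts in the NT GSI libraries.

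By group, the inhibitors parted most in ER and replication genes. In the ER list 16 of 25 were lower in this comparison, beside 5.59% of all genes. In the GSI interaction 0 of 25 were called (median 0.05), which is near the 2.79% of all genes. In the G1/S list 18 of 40 were higher and 1 lower, beside 7.04% and 5.59% of all genes. Ribosome biogenesis went the other way: 8 of 40 were above 0 in the GSI interaction, beside 2.1% of all genes. In the comparison of inhibitors 14 of the 40 were lower, beside 5.59%. HES1 parted as well, with a GSI interaction of -0.96 ± 0.12 (adjusted p = 0.0014), against -0.01 with CB-103, a difference of 0.95 ± 0.13 (adjusted p = 1.7e-04). CCND3 had a GSI interaction of -0.12 and a difference of 1.10 ± 0.10 (adjusted p = 4.3e-06), and PIK3R1 0.02 and 0.78 ± 0.12 (adjusted p = 5.3e-04). Of the 12 highest genes 9 differed between the inhibitors and of the 12 lowest 6, beside 12.6% of all genes. These genes were picked by their CB-103 interaction, which enters that difference. KRT1 (GSI interaction 1.62), LGALS12 (1.403) and CD2 (1.149) were also called with the GSI, and their difference between inhibitors was not called.

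**Figure D5:**
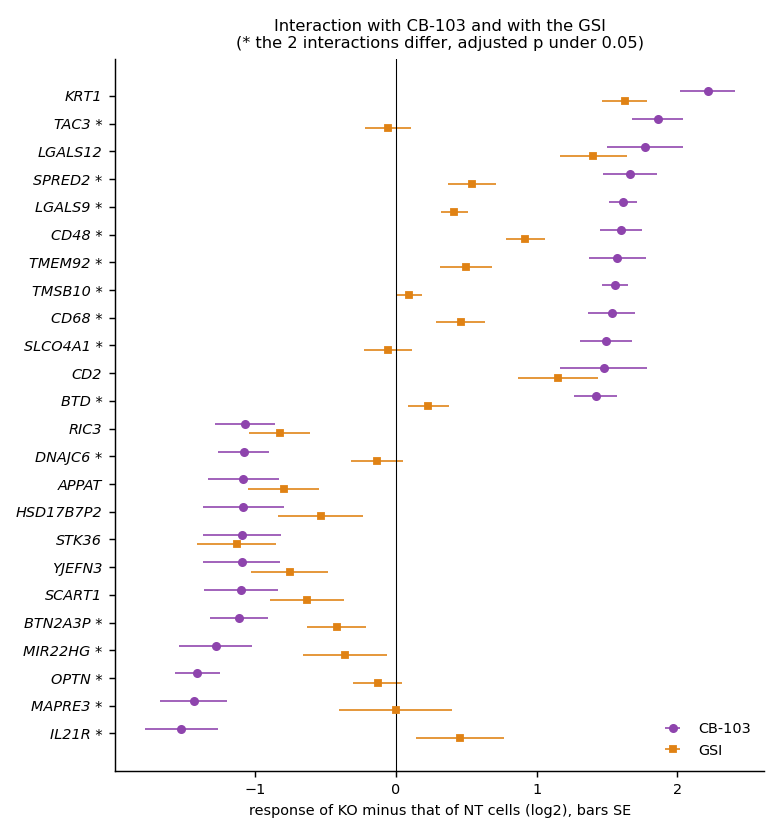
Response of KO minus that of NT cells (log2, horizontal axis; bars are the SE of the fit) with CB-103 (purple circles) and with the GSI (orange squares) for the 12 highest and 12 lowest genes; an asterisk marks genes whose interactions differ at an adjusted p under 0.05. TAC3, TMSB10 and SLCO4A1 lie near 0 with the GSI, while KRT1 and STK36 lie on the same side with both.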

How the data were processed

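RNA-seq of 18 RPMI-8402 libraries (6 groups of 3, 12 of them in the 4 groups compared) was analysed from the deposited gene table of estimated counts (expected counts), which the authors had rounded to whole numbers. Deposited transcript files held estimated counts, summed to genes for an alternative, and TPM values, per the file headers; TPM was not tested. Salmon 1.4.0 and HISAT2 2.2.1 are listed with the build hg38 in the submitters' processing notes, without their roles, beside FastQC 0.11.9 and bcl2fastq 2.20. Of 58735 genes, 17346 passed the count filter of edgeR 4.0.16 (R 4.3.3) and were fitted with TMM scaling, 1 mean per group over all 18 libraries (12 residual degrees of freedom) and the quasi-likelihood F test, with Benjamini-Hochberg adjustment over all genes. The GSI libraries informed the spread. The correlations within groups used log2 of CPM plus 1, and the comparison of same-numbered libraries used log2 CPM with a prior count of 2. Intervals are 95%. Alternatives used DESeq2 1.42.0 and limma 3.58.1, other scalings, filters and left-out libraries. On simulated data, interactions were planted in few genes, 67 at 1.5-fold, 67 at 2-fold and 66 at 4-fold, each averaging 5 CPM or more. Of these, 70.1%, 97% and 100% were recovered, and 6 of 17146 unchanged genes were called. Recovery in genes of lower level was not tested. Named genes were 13 fixed genes and, at a mean of at least 5 CPM, the 12 highest and 12 lowest called interactions. The 4 largest of each response class under the same minimum were added, and, without a minimum, at most 4 called genes per list by size. Further list members and overlapping or uncalled genes were named after their values were seen. The comparison, lists and tests were chosen with earlier results of these data known. Gene coordinates are from GENCODE on GRCh38.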

Additional observations from a re-analysis of the deposited data

Results flagged for a closer look

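The responses of KO and NT cells differed, by the test of the difference itself, for 2533 genes with CB-103, and the genotype difference under CB-103 differed from that under the GSI for 2191 genes. Among genes named by the rule, 7 rose with CB-103 in KO cells and fell in NT cells, each response and the difference called by the edgeR quasi-likelihood test. Their log2 differences between KO and NT responses were 1.01 for F2RL2, 0.85 for RNF145, 0.83 for HSPA8, 0.81 for PIK3R1, 0.63 for the lipoprotein receptor VLDLR, 0.47 for PSMA2 and 0.40 for PSMA4.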

How the results depend on the processing

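The 2533 interaction calls became 1833 to 2751 with 1 library left out, the lowest without NT CB-103 replicate 3, and 2439 to 3563 with other filters, tests or counting; the 5 genes that changed sign, all with counts summed from transcripts, were not called there. With library totals alone 1404 genes were below 0, and with replicates 2 and 3 only 483. Same-numbered libraries deviated together weakly (correlations 0.068 to 0.352, 13 of 18 over 0.1), and 9 of 12 deviated most like their own number, a hint of pairing that the labels do not give; with replicate block 3373 genes were called, including 2531 of the 2533. At least 2-fold were 162 above and 141 below 0 in the interaction, 1712 in the KO response, 3101 in the NT response, 926 between genotypes under CB-103, 580 under DMSO, and 333 of the genes responding less in KO cells. Between the inhibitors, the count above 0 was 1939 with transcript sums and 156 at 2-fold, 782 to 1251 with 1 library left out (782 without NT CB-103 replicate 3, 784 without NT GSI replicate 3); the count below 0 was 561 with fewer libraries in the fit and 54 at 2-fold. The sign turned for 3 uncalled genes. CDKN1B was at -0.066 with library totals, and -0.022 to 0.0661 with a library left out. HES1 was at 0.0118 with DESeq2 size factors, 0.0057 without mitochondrial genes, 0.0026 without the filter, 0.0119 by DESeq2, 0.0029 in the 12 libraries, 0.15 in replicates 2 and 3, and -0.10 to 0.0860 with a library left out. IL7R was at -1.10 to 1.78 with a library left out. The cause was not tested.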
